A study of Homo sapiens with 4 samples.

Results

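METRN, PARD6A, FAM195B, A1BG and ZNF593 are 5 protein-coding genes whose mRNAs made up a larger share of RNA recovered with the deacylase SIRT7 than of total RNA. They were chosen by their measured rise of 5-fold or more in RNA pulled down with SIRT7 over total RNA, among genes that sit at a single locus. They are 5 of 23615 genes in the table and 5 of the 168 that rose that far. All 4 libraries came from HEK293T, a human embryonic kidney cell line stably overexpressing Flag-SIRT7 and used at passages 10 to 15; the labels do not say whether the line is a single clone. The 2 input libraries hold total RNA, and the 2 RIP libraries (RNA immunoprecipitation) hold RNA freed from Flag-SIRT7 caught on an anti-Flag gel. Ribosomal RNA was removed from both. Mock pull-downs from untagged cells were not analysed here, and every RIP value includes whatever RNA sticks to the gel alone.

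These mRNAs code for unrelated proteins. METRN (meteorin) is a secreted factor that acts on glial cells and on the growth of axons. PARD6A is the adaptor of the PAR complex, which joins PAR3, atypical protein kinase C and the small GTPase CDC42 and sets cell polarity. FAM195B, now called MCRIP1, codes for a small protein that binds the corepressor CtBP and is controlled by ERK kinase. A1BG is a plasma glycoprotein of the immunoglobulin superfamily made mainly in liver, and ZNF593 is a small nucleolar zinc finger protein whose yeast counterpart travels with precursors of the large ribosomal subunit. RIP reads out which mRNAs are present in a purified ribonucleoprotein sample, and SIRT7 itself is a nucleolar and nuclear enzyme that removes acyl groups from lysines.

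The content of G and C just upstream of each gene's start was not used in the choice of members. It was above the median of tested genes in every member. In PARD6A and A1BG it was close to the median of genes that rose at least 5-fold. The 100 bases before the start site are printed 5′ to 3′ on the gene's strand from RefSeq (GRCh38.p14). Capitals mark every GGGCGG and its reverse complement CCGCCC, overlapping matches included. These bases lie outside the transcript and are not part of the RNA that was sequenced. The windows are chr16:715018-715117 (plus strand), chr16:67660860-67660959 (plus), chr17:81833292-81833391 (minus), chr19:58353493-58353592 (minus) and chr1:26169808-26169907 (plus), in the order of the lines.
METRN: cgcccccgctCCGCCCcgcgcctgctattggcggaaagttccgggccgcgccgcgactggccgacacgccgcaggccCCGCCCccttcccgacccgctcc
PARD6A: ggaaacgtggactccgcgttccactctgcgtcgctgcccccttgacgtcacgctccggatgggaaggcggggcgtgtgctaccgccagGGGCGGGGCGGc
FAM195B: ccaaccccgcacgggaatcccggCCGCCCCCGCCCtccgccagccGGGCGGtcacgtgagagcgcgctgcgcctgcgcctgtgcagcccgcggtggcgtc
A1BG: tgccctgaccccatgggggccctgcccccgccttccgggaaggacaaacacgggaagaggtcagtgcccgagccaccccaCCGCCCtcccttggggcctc
ZNF593: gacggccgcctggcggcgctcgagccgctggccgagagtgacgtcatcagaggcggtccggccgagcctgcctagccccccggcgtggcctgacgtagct

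G and C made up 80.0% of this window in METRN and FAM195B, 75.0% in ZNF593 and 72.0% in PARD6A and A1BG. The median was 68.0% over 16506 promoters that belong to tested genes (a gene may have several start sites) and 71.5% over 166 promoters of genes that were called higher and rose at least 5-fold. METRN and FAM195B exceeded 85.8% of the promoters of tested genes, ZNF593 71.5%, and PARD6A and A1BG 62.1%. The motif was found in 4 of 5 windows, with 3 matches in FAM195B, 2 in METRN, 2 in PARD6A, 1 in A1BG and 0 in ZNF593. It was found on either strand in 31.3% of all 35116 promoter windows of that length in the reference table, in 47.6% of those of tested genes and in 53.0% of those of the 5-fold genes. CpG pairs numbered 17, 13, 16, 5 and 14 in the order of the lines, against a median of 9 for tested genes. A1BG thus differed from the other 4 in having few CpG pairs, below the median of tested genes.

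The libraries held 17310753 to 18131602 fragments on genes in input and 25655455 to 25998032 in RIP. SIRT7 mRNA, a check of the labels in which transgene and native transcripts are counted together, rose 37.4-fold. All 9 markers listed for HEK293T were tested (3 higher, 1 lower in RIP). Of 14555 genes that passed the low-count filter, 38.0% were called higher and 39.7% lower in RIP by edgeR (adjusted p under 0.05), and 1.15% were called higher with a rise of at least 5-fold. Levels are given as CPM, counts relative to library size, with sizes scaled by TMM, a factor that sets the bulk of genes equal between libraries, and directions are relative to that scale. With plain library totals the median log2 fold change was -0.76 in place of -0.03, and the split of 5531 higher and 5783 lower calls became 2481 and 9539. Whether replicate libraries stem from different cultures is not stated in the labels, so p-values measure only the spread between these libraries, which may be technical. They are bulk libraries, in which a level cannot be divided into mRNA per cell and number of cells holding the mRNA. A rise in RIP over input compares shares of recovered and total RNA and does not measure expression per cell.

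METRN, the meteorin mRNA, had 12.7 and 16.1 CPM in the input libraries (298 and 355 fragments) and 115.9 and 109.7 CPM in the RIP libraries (2310 and 2214 fragments). Both RIP libraries lay far above both input libraries. The lowest RIP value was 6.84 times the highest input value. The means were 14.4 ± 2.39 and 112.8 ± 4.36 CPM (SD, n = 2 each), a 7.87-fold rise (log2 fold change 2.98, SE 0.10), rank 11 of 14555 tested genes. No p-value is given for METRN or the other 4, since this contrast chose them. That choice also largely fixed the gap between input and RIP libraries in METRN and the other 4.

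PARD6A, the polarity adaptor, was the least abundant of the 5. It had 2.38 and 3.71 CPM in input (56 and 82 fragments) and 21.9 and 23.2 CPM in RIP (436 and 467 fragments). The groups did not overlap, but the first input library stood well below the second. The rise was 7.42-fold (log2 fold change 2.89, SE 0.16), the widest error of the 5, at rank 13. Leaving out 1 library at a time moved its log2 fold change between 2.59 and 3.26, both ends set by which input library was kept.

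FAM195B, the CtBP-binding protein's mRNA, was the most abundant of the 5 in RIP and the most even between the RIP libraries, while ZNF593 was more even in input. It had 45.3 and 49.1 CPM in input (1065 and 1085 fragments) and 342.1 and 346.7 CPM in RIP (6818 and 6994 fragments). The means were 47.2 ± 2.68 and 344.4 ± 3.22 CPM (SD, n = 2 each), a 7.31-fold rise (log2 fold change 2.87, SE 0.08) at rank 16. Every RIP value was at least 6.98 times every input value. Leaving out 1 library at a time gave log2 fold changes from 2.81 to 2.95.

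A1BG, the plasma glycoprotein's mRNA, had 7.05 and 8.72 CPM in input (166 and 193 fragments) and 45.1 and 40.4 CPM in RIP (899 and 815 fragments). The groups stood apart, with the lowest RIP value 4.63 times the highest input value, so the 5-fold rise of the means was not met by every pair of libraries. The rise of the means was 5.43-fold (log2 fold change 2.44, SE 0.11), rank 104. Leaving out 1 library at a time gave 2.29 to 2.62, and the lowest of these lies under the 5-fold line.

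ZNF593, the nucleolar zinc finger mRNA, was just inside the limit. It had 27.2 and 28.9 CPM in input (640 and 639 fragments) and 145.5 and 136.9 CPM in RIP (2899 and 2762 fragments). Input libraries were close to each other, and both RIP libraries were well above them. The rise was 5.04-fold (log2 fold change 2.33, SE 0.08), rank 161, and leaving out 1 library at a time gave 2.28 to 2.39, again with the lowest under the 5-fold line. Among tested genes with a mean of at least 50 fragments, the 3 nearest inside the limit were DEAF1 (5.004-fold), RPP25L (5.018-fold) and C6orf1 (5.019-fold). The 3 nearest outside were PDLIM2 (4.997-fold), NUBP2 (4.996-fold) and FAM108A1, which was under the limit by less than PDLIM2.

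**Figure D1:**
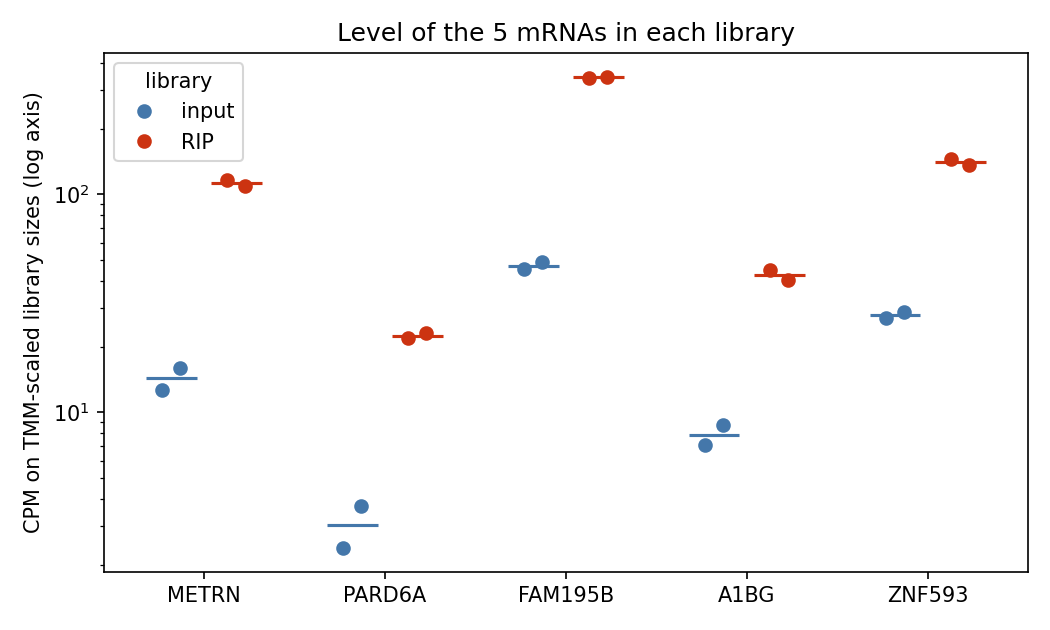
Level of each mRNA in each library, in CPM on TMM-scaled library sizes on a log axis. Points are libraries (blue input, red RIP) and short lines are group means. The genes were chosen for their rise in RIP, which sets the gap between red and blue points. The blue points of PARD6A (2.38 and 3.71 CPM) are the farthest apart.

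Together the 5 genes took 0.0123% and 0.0136% of all fragments in input and 0.0521% and 0.051% in RIP. The authors' estimated fragments were whole numbers (within 1e-09) in all 20 values of these genes and in 98.07% of all values in the table. None of their entries was marked as failed.

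The agreement between the libraries of a group was not used in choosing the members. In RIP, the libraries differed by 0.02 (FAM195B), 0.08 (METRN and PARD6A), 0.09 (ZNF593) and 0.16 (A1BG) on the log2 scale. For tested genes within a factor of 2 of each member's level, the median of this difference was 0.05 to 0.09 and the 90th percentile 0.12 to 0.23, so all 5 stayed inside the 90th percentile of genes like them in level. Input was less even. PARD6A differed by 0.55 between the input libraries, more than 94.5% of 2072 genes of like level, and METRN by 0.33, more than 93.3% of 3957 such genes. The exact counting interval (95%) of the first over the second input library was 0.449 to 0.913 for PARD6A and 0.674 to 0.923 for METRN. Both exclude 1, for counting error only, as did the RIP intervals of A1BG (1.01 to 1.23) and ZNF593 (1.01 to 1.12). A1BG differed by 0.29, FAM195B by 0.12 and ZNF593 by 0.09, inside the 90th percentiles of 0.35, 0.23 and 0.25. In all 5 genes the second input library was the higher one. This was not particular to them. Among genes named below, it was also higher in FAM173A (14.7 and 20.5 CPM) and NENF (55.7 and 60.6 CPM), and lower in INADL (36.2 and 30.7 CPM). The share of all tested genes with this direction was not counted.

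**Figure D2:**
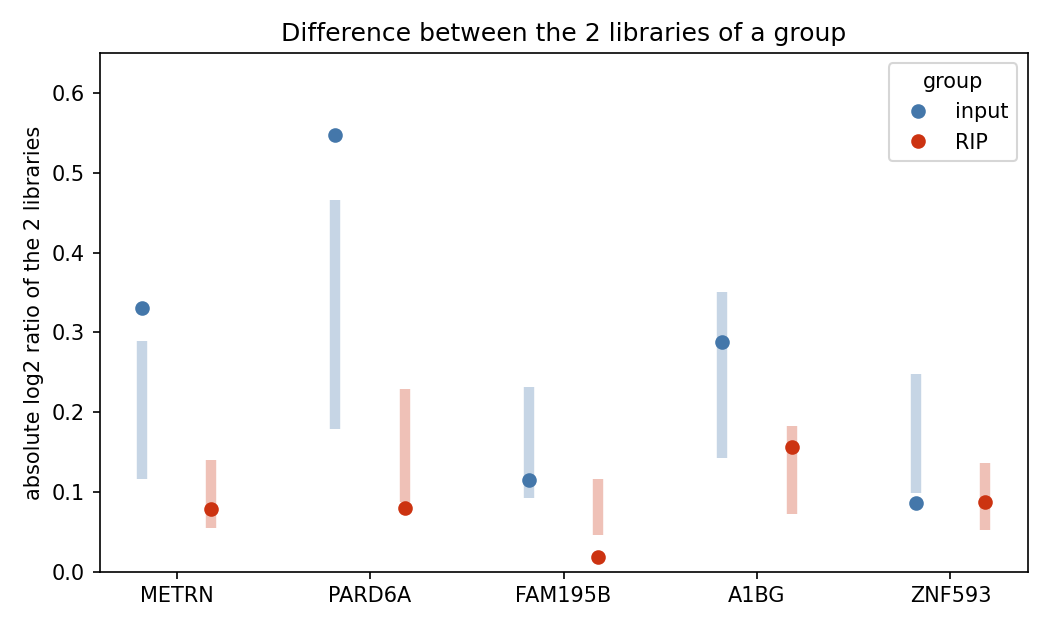
Absolute log2 ratio of the libraries of a group for each gene (points; blue input, red RIP). Each pale bar runs from the median to the 90th percentile of the same ratio over tested genes within a factor of 2 of that level; the input points of METRN (0.33) and PARD6A (0.55) lie above their bars.

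Levels can be compared between genes only per length, and the authors' FPKM values (fragments scaled to transcript length and by the authors' factor for each library) serve for that. In input the order was ZNF593 (55.6 and 60.1 FPKM), FAM195B (43.4 and 46.5), METRN (13.01 and 16.79), A1BG (4.13 and 5.20) and PARD6A (2.06 and 3.26). In RIP the first 2 changed places: FAM195B had 334.8 and 331.4 FPKM and ZNF593 304.1 and 285.6. METRN (121.8 and 115.1), A1BG (27.0 and 24.1) and PARD6A (19.3 and 20.4) followed in the same order. No neighbours in either order overlapped in their 2 values. On this per-length scale PARD6A stood above 29.9% of tested genes in input and 72.4% in RIP, while METRN went from 69.8% to 92.7%.

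All 5 mRNAs were short. Effective length, the authors' scaled fragments divided by FPKM, was 0.167 of the median tested gene for ZNF593, 0.332 for METRN, 0.361 for FAM195B, 0.395 for PARD6A and 0.583 for A1BG. Only 1.8% of tested genes were shorter than ZNF593, 7.8% than METRN, 9.1% than FAM195B, 10.8% than PARD6A and 22.1% than A1BG. Longer mRNAs had lower fold changes over the tested genes as a whole (rho -0.60 by Spearman; the genes share the same 4 libraries and are not replicates). Of the 168 genes called higher and at least 5-fold, 96.4% were shorter than the median tested gene, with a median of 0.29. A1BG was longer than 84.5% of them, and ZNF593 was longer than 20.2%. Effective length hardly varied between libraries: METRN stayed between 0.33 and 0.334, ZNF593 between 0.166 and 0.168 and PARD6A between 0.393 and 0.396. FAM195B ranged from 0.354 and 0.358 in the first libraries of input and RIP to 0.365 in both second ones. That length depends on the mix of transcripts the authors' software fitted to each library.

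**Figure D3:**
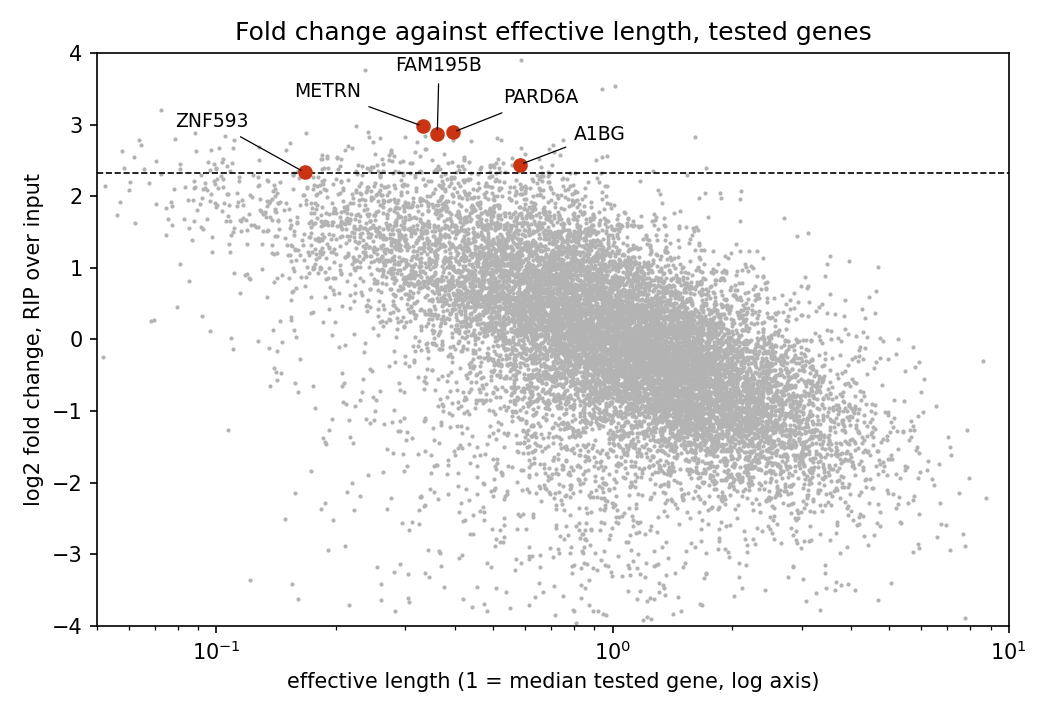
Log2 fold change of RIP over input against effective length (1 is the median tested gene, log axis) for 14495 tested genes in grey, with the 5 members in red; 60 genes outside the axes are not drawn. The dashed line is 5-fold. METRN, FAM195B and PARD6A lie at the upper edge of genes of their length, while ZNF593 lies among many short genes. The members were chosen for this fold change, which sets their height.

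Set against genes of like length, the members differed. The ranks below rest on the fold change that chose the members, so high ranks were largely fixed by that choice. Among the 500 tested genes nearest in effective length, METRN and PARD6A had the highest fold change, FAM195B ranked 3 of 501 and A1BG 5 of 501. Of those 500 genes, 21 around METRN, 14 around PARD6A, 18 around FAM195B, 6 around A1BG and 36 around ZNF593 rose at least 5-fold. ZNF593 ranked 36 of 501: the median log2 fold change of the genes around it was 1.49, against 1.01 around METRN, 0.83 around PARD6A, 0.95 around FAM195B and 0.49 around A1BG. Taking the length trend out with offsets in the fit left METRN at 1.87 (SE 0.08), PARD6A at 1.94 (SE 0.15), FAM195B at 1.83 (SE 0.06) and A1BG at 1.85 (SE 0.11) on the log2 scale, that is 3.55-fold to 3.83-fold. These 4 lay within 1 SE of PARD6A of each other, although A1BG had been well below the other 3 before. ZNF593 was left at 0.73 (SE 0.07), or 1.66-fold, and went from rank 161 to rank 2233. With length offsets 34.4% of all tested genes were called higher, and 31 were called higher with at least 5-fold, none of them a member.

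**Figure D4:**
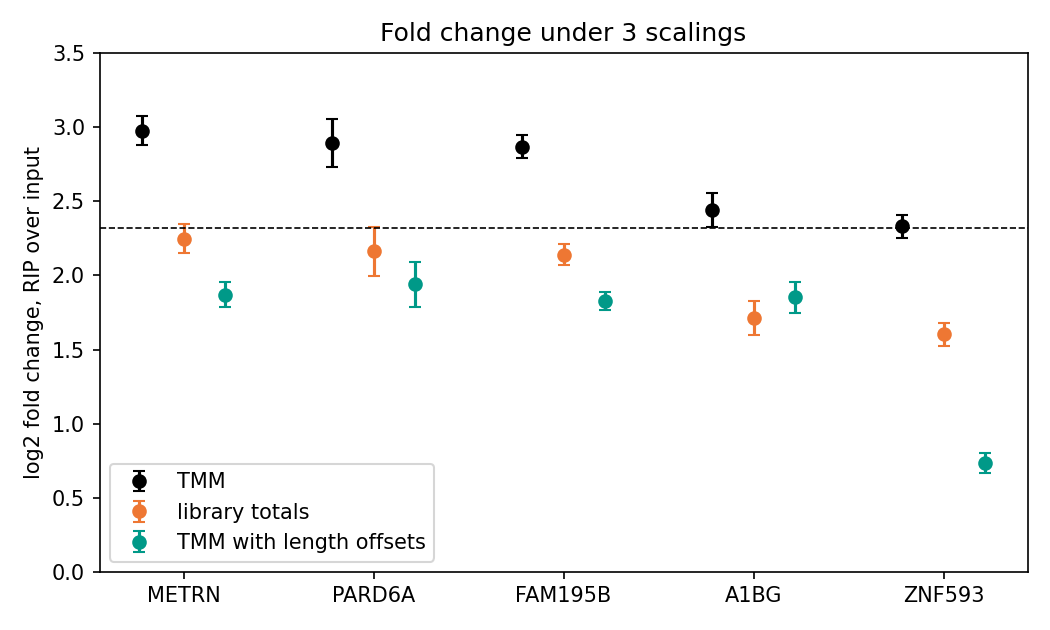
Log2 fold change of each mRNA (with its SE) under TMM, under plain library totals and under TMM with length offsets; the dashed line is 5-fold. With offsets METRN, PARD6A, FAM195B and A1BG lie between 1.83 and 1.94 and ZNF593 at 0.73; with library totals all 5 lie below the line.

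The 5-fold limit was met by all 5 on the TMM scale and with median-of-ratios size factors, where ZNF593 was lowest at 2.35 on the log2 scale, but with neither library totals nor length offsets. A1BG also lay under the limit on log2(FPKM + 1). With library totals the rises were 4.75-fold (METRN), 4.48-fold (PARD6A), 4.41-fold (FAM195B), 3.27-fold (A1BG) and 3.04-fold (ZNF593), and 9 genes of the table were called higher with at least 5-fold, none of them a member. The order of the 5 stayed the same.

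Relatives of the members were read from the fit over all genes, with edgeR's adjusted p. METRNL, the other meteorin gene, rose 4.19-fold, from 8.39 ± 0.863 to 35.1 ± 2.03 CPM (adjusted p = 8.229e-11). Its log2 fold change with length offsets was 1.18. FAM195A, the paralogue of FAM195B, rose 5.11-fold, from 18.9 ± 1.88 to 96.6 ± 0.466 CPM (adjusted p = 2.693e-12), with 1.07 under length offsets. The paralogues of PARD6A did not rise. PARD6B fell from 22.2 and 23.6 CPM to 13.2 and 15.7 (log2 fold change -0.66, adjusted p = 4.058e-05), a call lost after length correction (-0.13, adjusted p = 0.2747). PARD6G had 14.5 and 14.8 CPM in input and 14.4 and 13.9 in RIP (-0.05, adjusted p = 0.6556); it was at 0.27 after length correction (adjusted p = 0.03197) and at -0.78 with library totals (adjusted p = 8.233e-06). PARD6B and PARD6G had effective lengths of 1.64 and 1.35, against 0.395 for PARD6A. The difference between PARD6A and its paralogues was not tested.

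Each member was also set beside a list of genes tied to what its protein does. The neurotrophic and glial factors listed for METRN had 12 of 20 members tested, with 8 higher, 0 lower and a median log2 fold change of 1.39, beside 38.0% higher, 39.7% lower and a median of -0.03 over all tested genes. NENF, the neudesin gene, rose 5.63-fold (58.2 to 327.4 CPM), VEGFB, a growth factor gene, 4.34-fold and PSAP, the prosaposin gene, 1.27-fold (with library totals PSAP turned to -0.39). NRTN, the neurturin gene, chosen after its value was seen as the only other member with over 5-fold, rose from 4.90 to 35.2 CPM. These mRNAs were short too, with a median effective length of 0.51. Length offsets left 7 higher and 1 lower, median 0.40, beside 5000 and 5229 of all 14555 tested genes. Library totals left 6 and 3, beside 2481 and 9539 of all tested genes.

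The polarity genes listed for PARD6A were all tested: 4 of 19 were higher, 9 lower and 6 neither, beside 38.0% higher and 39.7% lower over all tested genes. Their median was -0.08, beside -0.03 over all tested genes, with a median effective length of 1.51. INADL, which codes for the Crumbs complex scaffold PATJ, fell by 2.18 (33.5 to 7.41 CPM, adjusted p = 1.029e-10) and TIAM1, an activator of RAC1, by 1.18 (adjusted p = 2.221e-09) on the log2 scale. Neither small GTPase passed the test: CDC42, which binds PARD6A protein, had 254.6 and 257.8 CPM in input and RIP (adjusted p = 0.834) and RAC1 139.8 and 154.2 CPM (adjusted p = 0.08709). Both had negative log2 fold changes after length correction (-0.36 and -0.16) and with library totals (-0.71 and -0.59), past the threshold each time. RAC1 was called higher (0.23, adjusted p = 0.00539) without the second input library. Length offsets gave 9 polarity genes higher and 5 lower, with INADL at -1.05 and TIAM1 at -0.19. Library totals gave 1 higher and 15 lower. Over all 14555 tested genes 5000 were higher and 5229 lower with length offsets, and 2481 and 9539 with library totals.

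The CtBP, ERK and DDX6 partners listed for FAM195B had 6 of 16 higher, 7 lower and a median of 0.06, near the 38.0% higher, 39.7% lower and median of -0.03 over all tested genes. Besides FAM195A, MAP2K2, the gene of the ERK-activating kinase MEK2, rose 4.13-fold (102.8 to 424.0 CPM, adjusted p = 5.034e-12) and the corepressor gene CTBP1 2.83-fold (146.4 to 414.6 CPM, adjusted p = 2.006e-11). With length offsets their log2 fold changes were 1.44 and 1.26. In that fit 8 genes of the list were higher and 4 lower, beside 5000 and 5229 of all 14555 tested genes. By library totals 4 were higher and 12 lower, beside 2481 and 9539 of all tested genes.

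The maturation and export factors of the large ribosomal subunit listed for ZNF593 were all tested, 14 of 20 higher and 5 lower, median 0.53, beside 38.0% higher, 39.7% lower and a median of -0.03 over all tested genes. NXT1, an RNA export cofactor gene, rose 4.65-fold (adjusted p = 1.12e-11) and EIF6, the anti-association factor gene, 2.34-fold (adjusted p = 2.959e-10). The abundant GNL3 (nucleostemin) and PA2G4 rose 1.56-fold and 1.29-fold and had log2 fold changes of -0.09 and -0.36 with library totals. Under length offsets 9 were higher and 5 lower, median 0.06, with NXT1 at 1.13 and EIF6 at 0.08 (adjusted p = 0.2492). Library totals gave 3 higher and 11 lower. Among all 14555 tested genes these counts were 5000 and 5229 with length offsets, and 2481 and 9539 with library totals.

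Liver plasma protein genes were listed for A1BG, and most were too low to test. Only 2 of 20 passed the low-count filter, with 0 higher and 1 lower. CP (ceruloplasmin) had 4.72 CPM in input and 2.75 in RIP (adjusted p = 0.003395, lost after length correction with 0.162) and C3 (complement) 0.415 and 0.374 CPM (adjusted p = 0.7995). ALB had 1 fragment in 1 library, and TTR, SERPINA1 and AHSG had 0 in all 4. A1BG thus stood at 7.89 CPM in input in a line where the defining liver mRNAs were at or near 0. Over all 5 lists, 69 of 95 companion genes were tested, 32 higher and 22 lower, and 3 rose at least 5-fold, beside 38.0%, 39.7% and 1.15% over all tested genes.

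**Figure D5:**
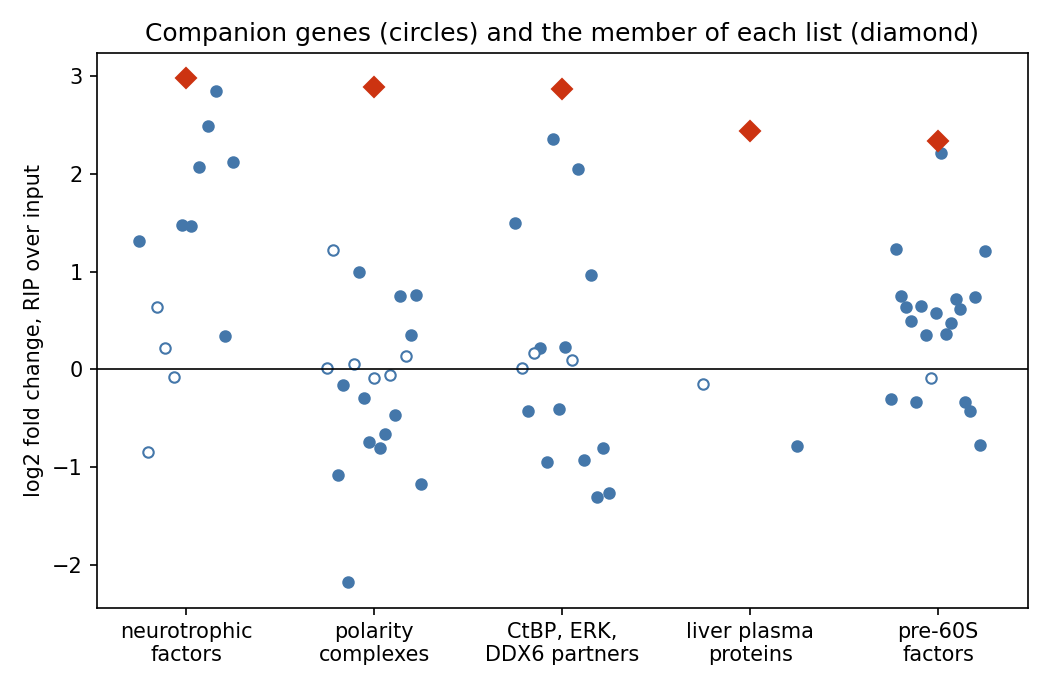
Log2 fold change of RIP over input for the tested companion genes of each list (blue circles, filled where edgeR's adjusted p was under 0.05) with the member the list was made for (red diamond). The neurotrophic list has its median at 1.39 and the other lists theirs between -0.47 and 0.53; the diamonds were chosen for a rise of 5-fold or more in this contrast, which sets their height.

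The genes next to the members on the chromosome were taken from RefSeq's order. METRN lies between FBXL16, which rose 2.49-fold (3.396 to 8.453 CPM, adjusted p = 2.123e-06), and FAM173A, which rose 5.32-fold (17.6 ± 4.05 to 93.4 ± 1.13 CPM, adjusted p = 2.229e-11). PARD6A lies between ACD, a telomere protein gene (2.71-fold, adjusted p = 1.113e-09), and ENKD1 (3.31-fold, adjusted p = 1.009e-10). Under length offsets these 4 neighbours had log2 fold changes of 1.55, 1.08, 1.01 and 0.99. Beside FAM195B, PPP1R27 rose from 0.464 to 1.30 CPM (adjusted p = 0.004244), a call lost after length correction (adjusted p = 0.8427), with library totals (0.1095) and without the first input (0.05067) or the second RIP library (0.07641). GCGR on its other side had 0 fragments in both input libraries and 1 in each RIP library.

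The surroundings of A1BG and ZNF593 gave smaller or opposite values. A1BG-AS1 overlaps A1BG and had 3.61 and 3.30 CPM in input and 4.52 and 3.72 in RIP (log2 fold change 0.25, adjusted p = 0.2589; -0.48 with library totals, adjusted p = 0.03863; -0.14 after length correction). The strand setting of the count is not given in the sources used here, so reads of A1BG and A1BG-AS1 may not be fully told apart. The zinc finger genes on either side of A1BG were ZNF497, which rose 1.91-fold (adjusted p = 8.521e-07; 0.1035 with library totals), and ZSCAN22 at -0.25 (adjusted p = 0.05208; 0.29 after length correction, adjusted p = 0.02507). CNKSR1, the gene after ZNF593, fell from 0.836 to 0.299 CPM (adjusted p = 0.01097; 0.09833 with DESeq2, 0.08481 without the second input library, 0.07091 without the first and 0.07547 without the second RIP library). ZNF593OS, which overlaps ZNF593 in RefSeq, was not analysed here.

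The genes most like each member over the 4 libraries were found by Euclidean distance between log2 CPM values centred on each gene's mean, among tested genes with a mean of at least 50 fragments. Nearest to METRN were RPS19 (0.13), RPL13 (0.16) and HIST1H2AG (0.16), and nearest to FAM195B were RPL35A (0.04), RPS19 (0.06) and RPL13 (0.07). These ribosomal protein and histone genes have near-identical copies elsewhere, so their own counts are uncertain. JOSD2 (0.07), C19orf24 (0.13) and HIST3H2A (0.15) were nearest to PARD6A. DNPH1 (0.03), NUBP2 (0.07) and C1orf122 (0.08) were nearest to A1BG, and MRPL53 (0.04), HRAS (0.05) and AGPAT2 (0.06) to ZNF593. RPL13 had an effective length of 1.61, and the others ranged from 0.105 to 0.496. The likeness rests on the same contrast that chose the members and is given as a description.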

How the data were processed

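The submitters' processing notes name Cuffdiff 2.2.1, TopHat2 2.0.13, Bowtie2 2.2.6 and cutadapt 1.5 and the build hg19 (source: per the labels); the annotation and the strand setting were not given in the sources used here. Expected counts in the deposited table are fragments per gene as the authors' software estimated them, the deposited scaled signal is the same divided by 1 factor per library, and the deposited FPKM are the authors' values scaled to length and library size. Libraries are numbered from 0 in the table and were matched to replicates 1 and 2 by that order.

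Estimated counts were rounded and tested with edgeR 4.0.16 (filterByExpr with a minimum count of 10 and total of 15, TMM, glmQLFit, glmQLFTest, group only, Benjamini-Hochberg over 14555 genes at 0.05). SE is the log2 fold change over the square root of F. Length offsets are per-library loess trends (span 0.3) on log2 effective length. The value fitted was log2 CPM minus the gene's mean over the 4 libraries. DESeq2 1.42.0 and limma 3.58.1 on log2(FPKM + 1) and log2(FPKM + 0.1) were alternatives. The fit was tested on simulated counts in which a small share of genes changed, with as many rises as falls. In these data 38.0% of tested genes were called higher and 39.7% lower. The simulation therefore does not check the TMM scale or the calls made here. Chi-square per gene between replicates was 6.17 in input and 3.4 in RIP, above sampling noise, and all 4 libraries were kept.

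The members and lists were chosen with earlier results of these data known. Named genes were the members, their paralogues, the 2 most abundant and 2 most significant genes of each list, the nearest genes on the chromosome, the 3 genes most like each member and the 3 on each side of the 5-fold limit.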

Additional observations from a re-analysis of the deposited data

How the results depend on the processing

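All 5 members kept a positive log2 fold change in each of 13 alternatives. They were chosen for a large rise in these same libraries, so the kept sign is no independent support. Library totals gave 2.25 (METRN), 2.16 (PARD6A), 2.14 (FAM195B), 1.71 (A1BG) and 1.60 (ZNF593), and length offsets 1.87, 1.94, 1.83, 1.85 and 0.73; in the other alternatives each stayed within the spread between libraries. Genes called higher and at least 5-fold numbered 168, against 9 with library totals and 31 with length offsets, and 171 to 278 when 1 library was left out, with 278 without the second input library. With library totals 2481 genes were called higher and 9539 lower, and 14 companion genes higher and 42 lower. Single genes turned direction with library totals (A1BG-AS1 to -0.48, CDC42 to -0.71, GNL3 to -0.089, PA2G4 to -0.36, PSAP to -0.39, RAC1 to -0.59) and with length offsets (A1BG-AS1 to -0.14, C3 to 0.49, CDC42 to -0.36, PARD6G to 0.27, RAC1 to -0.16, ZSCAN22 to 0.29). Leaving out 1 library at a time, C3 ranged from -0.3 to 0.042 (turned without the first input library) and CDC42 from -0.076 to 0.129 (turned without the first input or the second RIP library). The cause was not tested. The replicate numbers do not pair the samples as far as the labels say (correlation of input and RIP differences 0.024 over tested genes); with the replicate block 5580 genes were called higher and 5862 lower, and no call of a named gene changed. Depth limits PARD6A most, with 56 and 82 input fragments.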

Other observations

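METRN is known from glial cells, and the astrocyte markers listed were low in these libraries, except SLC1A3. GFAP had 10 to 26 fragments, AQP4 12 to 22, ALDH1L1 8 to 25 and S100B 0 to 3, while SLC1A3, a glutamate transporter gene, had 873 and 828 in input and 594 and 591 in RIP. Their summed level was 39.4 and 38.8 CPM in input and 32.7 and 32.5 in RIP. Of 4 tested members 1 was higher and 1 lower, beside 38.0% higher and 39.7% lower over all tested genes. Immune markers summed to 2.49 to 4.36 CPM and erythroid markers to at most 0.251 CPM over the 4 libraries.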
